A study of Mus musculus with 6 samples.

Results

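The deposited table of this mouse study held 10 predicted genes, named only by Gm numbers, that lie in blocks of satellite-like repeat sequence and reached very high FPKM values (sequenced fragments scaled by transcript length and by the mapped fragments of the library). They were chosen by position and by level: predicted Gm rows on GRCm38 chromosome 9 from 3 to 3.04 Mb, chromosome 2 from 98.66 to 98.67 Mb or chromosome 14 from 19.415 to 19.419 Mb whose FPKM averaged 100 or more across all 6 libraries. Of 12 such rows at these loci 10 reached that mean, out of 12560 rows in the table. Since the level itself chose them, their high FPKM is a description and not a finding. The libraries were made from total RNA of samples labelled chondrocytes, 3 from Eldr cKO mice and 3 from control mice. Eldr is a long noncoding RNA that the series title links to the senescence of chondrocytes. The labels give neither the Cre line nor the animals' age, and nothing in them says that libraries of a group came from separate mice, so a p-value here reflects only how far these libraries scatter, which can be technical.

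Mouse chromosomes are packed next to their centromeres into constitutive heterochromatin, built on long tandem arrays of an AT-rich repeat called the major or gamma satellite. The arrays are normally kept compact by histone H3 lysine 9 methylation, HP1 proteins and DNA methylation, and their transcripts are known to increase when this silencing weakens, as has been described in senescent and stressed cells. Most of the arrays are absent from the assembled genome. Short islands of satellite-like sequence that were assembled, such as those on chromosomes 2, 9 and 14, are known to collect an excess of reads in many kinds of mouse sequencing experiment. No function of the 10 predicted genes is known with certainty, so none is given here.

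The repeat is visible in the annotated transcripts. The longest uninterrupted exon of Gm10722, its exon 2 on the plus strand of chromosome 9, holds 2 adjacent copies of a unit of 234 bases. They are printed to show the tandem order of the sequence, with capitals marking the bases that are the same in both copies. The sequences here and below are from the GENCODE M21 transcripts on GRCm38, 5′ to 3′ on the strand of the gene.
Gm10722 unit 1, chr9:3000962-3001195: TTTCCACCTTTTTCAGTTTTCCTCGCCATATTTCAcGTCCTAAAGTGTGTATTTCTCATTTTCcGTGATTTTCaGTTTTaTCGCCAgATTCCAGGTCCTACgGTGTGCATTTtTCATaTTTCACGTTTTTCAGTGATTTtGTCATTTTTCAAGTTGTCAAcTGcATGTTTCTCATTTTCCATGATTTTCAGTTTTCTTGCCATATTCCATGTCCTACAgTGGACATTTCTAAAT
Gm10722 unit 2, chr9:3001196-3001429: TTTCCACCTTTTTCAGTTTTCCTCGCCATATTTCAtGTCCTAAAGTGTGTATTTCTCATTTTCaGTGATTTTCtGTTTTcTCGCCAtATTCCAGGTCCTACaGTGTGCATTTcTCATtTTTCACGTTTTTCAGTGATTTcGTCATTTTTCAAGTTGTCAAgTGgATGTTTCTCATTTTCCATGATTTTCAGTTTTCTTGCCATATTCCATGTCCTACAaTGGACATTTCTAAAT
Of the 234 bases, 222 (94.9%) were identical between these copies. The unit has the length of the mouse major satellite repeat.

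The same sequence lies at all 3 loci. The 4 members with a mean above 1000 FPKM are shown by a stretch of 116 bases that was chosen as their best ungapped match within single exons. Capitals mark the 109 bases that are identical in all 4.
Gm10800, chr2:98666765-98666880, minus strand: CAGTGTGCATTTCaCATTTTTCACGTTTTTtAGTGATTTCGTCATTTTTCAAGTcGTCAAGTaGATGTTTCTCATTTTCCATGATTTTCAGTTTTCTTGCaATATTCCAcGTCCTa
Gm10801, chr2:98662241-98662356, plus strand: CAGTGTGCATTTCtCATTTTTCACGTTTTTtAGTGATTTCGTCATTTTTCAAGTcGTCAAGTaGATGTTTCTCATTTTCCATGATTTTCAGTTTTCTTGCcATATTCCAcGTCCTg
Gm21738, chr14:19417245-19417360, minus strand: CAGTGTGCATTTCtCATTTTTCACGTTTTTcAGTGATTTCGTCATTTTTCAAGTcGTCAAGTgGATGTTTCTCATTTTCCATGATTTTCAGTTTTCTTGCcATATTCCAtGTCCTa
Gm10722, chr9:3001296-3001411, plus strand: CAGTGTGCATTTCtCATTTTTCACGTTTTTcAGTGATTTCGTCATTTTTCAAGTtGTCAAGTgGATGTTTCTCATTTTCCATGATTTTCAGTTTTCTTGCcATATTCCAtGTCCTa
Against the Gm10722 stretch, 115 of 116 bases of Gm21738, 111 of Gm10801 and 110 of Gm10800 were identical. The chromosome 14 copy was thus closest to the chromosome 9 copy in this window.

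Over whole transcripts the members were near copies of each other. In GENCODE M21 the 10 genes had 23 transcripts of 504 to 684 bases, each with a length divisible by 3. In all 23 the coding annotation covered every exon base and 0 untranslated parts were annotated, so these lengths are coding lengths. Aligning the longest transcript of each gene, the shorter within the longer, gave identities from 87.1% to 97.4% over the 45 pairs, with a median of 94.0%. The 7 members on chromosome 9 were 93.7% to 97.4% identical to one another, and pairs that left out Gm10801 had at least 90.2%. The reverse complement gave 43.2% to 45.2% for the same pairs, so the longest transcripts of the 10 genes run along the same strand of the repeat, although Gm10800 and Gm21738 lie on the minus strand of their chromosomes and the other members on the plus strand.

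Slid along themselves by 20 to 300 bases, 16 of the 23 transcripts matched best at an offset of 234 bases and 5 at 237 bases. Gm10800 matched best at 225 and Gm10801 at 231 bases. Identity at the best offset lay between 52.7% and 69.7%, against medians over all offsets of 30.7% to 32.1%. A second peak stood at 58 bases, where 47.3% to 58.7% of bases matched. A subunit of that size within the major satellite is textbook knowledge. These periods were found without use of the expression values.

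**Figure D1:**
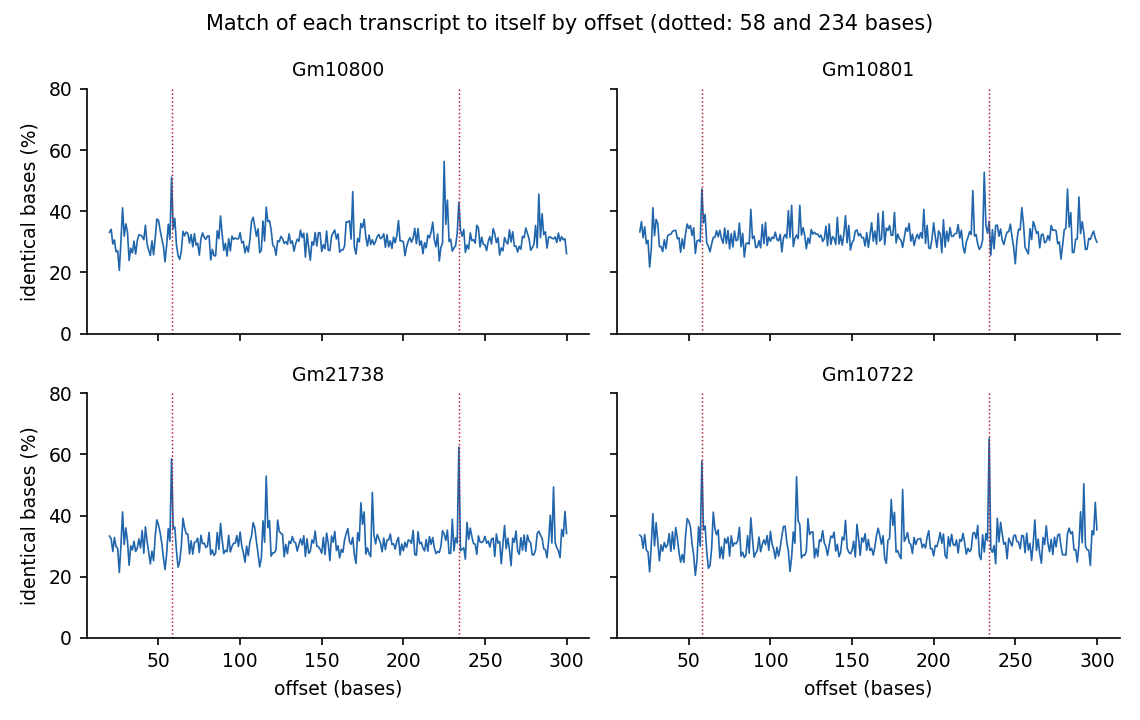
Percent of identical bases (y axis) when the transcript of Gm10800, Gm10801, Gm21738 or Gm10722 is compared with itself at each offset in bases (x axis), with dotted lines at 58 and 234 bases. Gm21738 and Gm10722 peak at 234 bases, while the highest peaks of Gm10800 and Gm10801 stand at 225 and 231 bases.

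Base composition and exon structure were unusual as well. Member transcripts held 34.2% to 36.0% G and C, a level at or below which 2.23% of 21901 protein-coding genes lay, the median of these being 49.1%. Each transcript was annotated with 3 to 6 exons. In the longest transcript of 8 of the 10 members, Gm10801 and Gm10717 being the exceptions, some neighbouring exons were separated by fewer than 10 bases and in Gm10800 by as few as 1 base. Such gaps, far shorter than a spliced intron, occurred in the longest transcript of 0.192% of protein-coding genes. Shorter transcripts of Gm10717 also had them. The table lists all 10 as protein coding.

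Because of this likeness, levels of single members are uncertain. Of the stretches of 50 bases in a member's transcripts, between 17.1% (Gm10801) and 90.1% (Gm17535) also occurred in the transcript of another gene. At 100 bases the range was 0% (Gm10800 and Gm10801) to 66.7% (Gm17535), with a median of 24.8%. All these other genes belonged to the same 3 loci, except Gm26870, a long noncoding RNA annotated antisense to the chromosome 9 members. Its exons cover between 155 and 288 exon bases of Gm10718, Gm10721, Gm11168 and Gm17535. How reads that fit several copies were assigned, and whether strand was used, was not given in any source used here. Values of chromosome 9 members are therefore best read together with their sum, and reads from satellite arrays outside the assembly cannot be told apart from reads of these rows.

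The libraries were shallow by an estimate made from the values themselves, and this touches every value. From the steps that single fragments leave in the FPKM values, the depth was estimated as 190905, 52006 and 55801 fragments in Eldr cKO 1, 2 and 3 and as 461267, 78990 and 129498 in control 1, 2 and 3. The search allowed only depths below a fixed limit, so a depth above that limit could not have been returned. Between 71 (control 3) and 149 (Eldr cKO 1) genes with a single annotated transcript lay at the step of 1 fragment. Rows above 0 numbered 9239, 4601 and 4907 in Eldr cKO and 9939, 4717 and 7832 in control. Of 14 core chondrocyte markers 5 were listed and 0 reached a value above 0 throughout, with Col2a1 and Acan among those without a row. Of 12 heart muscle markers 9 were detected in every library. The summed level of all 12 lay between 1798 and 8278 FPKM in Eldr cKO and between 927 and 9186 FPKM in control. That of the 5 chondrocyte markers lay between 1.91 and 12.5 FPKM in Eldr cKO and between 0.616 and 4.20 FPKM in control. No row carries the name Eldr. The gene was not analysed here, and the genotype labels were not checked on it. In bulk RNA, fewer cells of a type and less RNA per cell cannot be told apart.

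Gm10800 (ENSMUSG00000075014.1, GRCm38 chr2:98666547-98667301, minus strand, 5 exons) was the most abundant member. Its level was 7113, 139652 and 131405 FPKM in Eldr cKO 1, 2 and 3, against 9208, 34447 and 26167 FPKM in control 1, 2 and 3. Eldr cKO 2 and 3 lay above every control and Eldr cKO 1 below every control, so the groups overlapped. The row was the highest of the whole table in Eldr cKO 2 and 3, the second highest in control 2 and 3, number 10 in Eldr cKO 1 and number 12 in control 1.

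Gm10801, the other member on chromosome 2 (98662237 to 98664083, plus strand), was listed at 912, 11615 and 11670 FPKM in Eldr cKO and at 645, 3467 and 2146 FPKM in control. Here Eldr cKO 1 lay above control 1 but below the other controls. Gm21738 on chromosome 14 (19415857 to 19418930, minus strand) was listed at 1888, 30411 and 32098 FPKM in Eldr cKO, against 2518, 6426 and 5612 FPKM in control. As for Gm10800, Eldr cKO 1 was the lowest library.

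Gm10722 (3000922 to 3002330) led the chromosome 9 block, with 533, 9823 and 8779 FPKM in Eldr cKO and 499, 2336 and 1969 FPKM in control. Gm10718 (3023547 to 3025218) followed at 164, 1956 and 2553 FPKM in Eldr cKO, against 198, 482 and 382 FPKM in control. Both lie on the plus strand, as do all members of this block. Gm10722 had its lowest value in control 1 and Gm10718 in Eldr cKO 1.

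The remaining members of chromosome 9 had lower levels. Gm10721 (3013140 to 3014344) was listed at 70.3, 1112 and 857 FPKM in Eldr cKO and at 78.1, 178 and 274 FPKM in control. Gm10719 (3017408 to 3021593) was listed at 54.4, 799 and 1102 FPKM in Eldr cKO, against 41.9, 289 and 194 FPKM in control. In both, Eldr cKO 2 and 3 stood above the controls.

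Gm11168 (3003346 to 3006948) was listed at 22.2, 587 and 549 FPKM in Eldr cKO and at 40.3, 108 and 41.2 FPKM in control. Gm17535 (3034599 to 3035805) was listed at 23.0, 224 and 393 FPKM in Eldr cKO, against 26.8, 116 and 43.3 FPKM in control. In Gm11168 control 3 lay close to control 1. At the estimated depth control 3 stood on 3.61 fragments for Gm11168 and on 3.77 fragments for Gm17535.

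Gm10717 (3025417 to 3033289), with 9 annotated transcripts, was listed at 6.61, 316 and 316 FPKM in Eldr cKO and at 12.1, 91.6 and 70.3 FPKM in control. It showed the widest span, 47.8-fold between its highest and lowest library, against 15.5-fold for Gm10718, the narrowest. At the estimated depth its value in Eldr cKO 1 stands on 0.843 fragments, so this low end is at the limit of detection. Gm10717 at a mean of 135 FPKM and Gm17535 at 138 FPKM were the members just inside the threshold. Gm10720, at a mean of 75.9 FPKM, and Gm10715, at 30.6 FPKM, lay just outside, both also on chromosome 9. Gm10720 was listed at 10.04, 253 and 103 FPKM in Eldr cKO and at 18.1, 59.4 and 11.4 FPKM in control. Gm10715 was listed at 0, 105 and 76.2 FPKM in Eldr cKO and at 0, 0 and 2.17 FPKM in control.

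**Figure D2:**
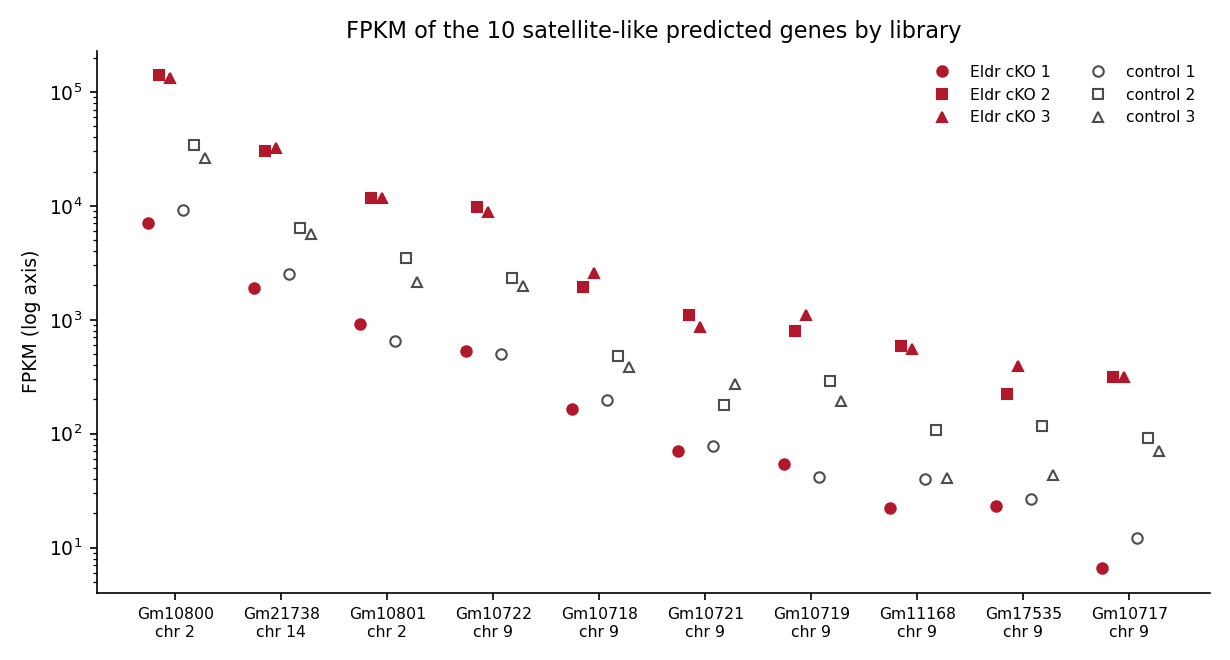
FPKM (log axis) of the 10 members, ordered by mean, with filled red symbols for Eldr cKO 1, 2 and 3 and open grey symbols for control 1, 2 and 3. In all 10 genes Eldr cKO 2 and 3 lie above every control, and Eldr cKO 1 and control 1 lie below control 2 and 3.

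The order of libraries was nearly the same for all members. All 10 were above 0 in every library. In 10 of 10, Eldr cKO 2 and 3 exceeded every control, and Eldr cKO 1 lay below control 2 and 3. This tally is in part fixed by how the members were chosen, since Gm11168, Gm17535 and Gm10717 had control means of 63.0, 62.0 and 57.97 FPKM and passed the threshold of 100 FPKM only through their Eldr cKO means of 386, 213 and 213 FPKM. Among the 7 members with a control mean of at least 100 FPKM, Eldr cKO 2 and 3 exceeded every control in 7. Both tallies set Eldr cKO 1 aside. What share of all tested genes had this order was not computed, so neither tally is a result about the members. Eldr cKO 1 was the lowest library for 7 members and control 1 for 3, and the highest was Eldr cKO 2 for 5 and Eldr cKO 3 for 5. As a description, Pearson's r of log2(FPKM + 1) between members over the 6 libraries ranged from 0.90 to 1.00 in 45 pairs, with a median of 0.97. The points share library and depth, and the members share sequence.

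Summed, the 10 rows took a share of all FPKM that differed widely between libraries of the same genotype. In Eldr cKO 1, 2 and 3 they contributed 3.84%, 48.7% and 46.1% of all FPKM, against 3.07%, 12.9% and 13.4% in control 1, 2 and 3. The means were 32.9% ± 25.2 in Eldr cKO and 9.78% ± 5.82 in control (SD, n = 3 each). Without the mitochondrial rows in the total, the members held 6.80%, 73.7% and 69.7% in Eldr cKO and 9.57%, 42.9% and 22.8% in control, so that Eldr cKO 1 became the lowest library and control 2 stood well above control 3. With all rows, the difference of 23.1 percentage points was smaller than the SD of the Eldr cKO libraries, and a two-sided exact permutation test gave p = 0.30, with 0.10 as the smallest p that 3 against 3 libraries allow.

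Each locus followed this course. The chromosome 2 members held 2.85%, 37.5% and 34.8% of all FPKM in Eldr cKO and 2.28%, 10.2% and 10.3% in control. Gm21738 on chromosome 14 held 0.671%, 7.54% and 7.80% in Eldr cKO, against 0.582%, 1.72% and 2.04% in control. The 7 members of chromosome 9 together held 0.311%, 3.68% and 3.54% in Eldr cKO and 0.207%, 0.966% and 1.08% in control. The exact permutation p was 0.30 for each locus, two-sided, n = 3 per group.

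**Figure D3:**
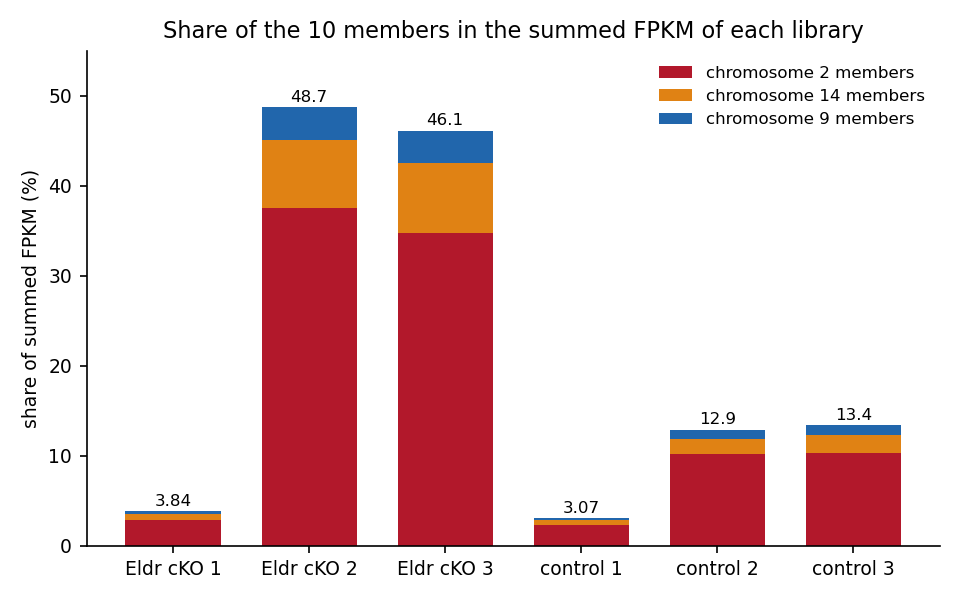
Share of the summed FPKM (%) held by the members on chromosome 2, 14 and 9, stacked for each library. The bars reach 3.84%, 48.7% and 46.1% in Eldr cKO 1, 2 and 3 and 3.07%, 12.9% and 13.4% in control 1, 2 and 3.

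FPKM counts short transcripts heavily, so the share was also weighted by length, a choice made after seeing the data. Of the sum over all rows of FPKM multiplied by transcript length, the members held 1.99%, 39.1% and 34.8% in Eldr cKO 1, 2 and 3, against 1.79%, 9.01% and 7.84% in control 1, 2 and 3. Set against all mapped fragments of a library, in the listed rows or not, the same products gave 0.702%, 12.9% and 12.4% of the mapped fragments for the members in Eldr cKO 1, 2 and 3, and 0.871%, 3.12% and 2.41% in control 1, 2 and 3. Gm10800 by itself accounted for 0.469%, 9.22% and 8.67% in Eldr cKO, against 0.608%, 2.27% and 1.73% in control. With the estimated depths this corresponds to 1340, 6683 and 6924 fragments for the 10 members in Eldr cKO and to 4018, 2467 and 3125 in control. The deepest library, control 1, thus held more member fragments than control 2 and 3 at a smaller share. Eldr cKO 2 and 3 held the most fragments at the lowest depths. Outside the members 189565, 45323 and 48876 fragments were left in Eldr cKO and 457249, 76523 and 126373 in control.

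Some other properties of the libraries moved with the share and some did not, and their part in it was not tested. The libraries ordered by estimated depth (control 1, Eldr cKO 1, control 3, control 2, Eldr cKO 3 and Eldr cKO 2) stood in the reverse order of the share, except that control 3 (13.4%) lay slightly above control 2 (12.9%). Mitochondrial genome rows held 43.6%, 33.9% and 33.8% of all FPKM in Eldr cKO and 68.0%, 70.0% and 41.1% in control. Of the FPKM outside the members they made up 45.3%, 66.1% and 62.8% in Eldr cKO, against 70.1%, 80.4% and 47.5% in control, so this order was not that of the member share. The 330 olfactory receptor rows, genes of the nasal epithelium, made up 0.0127%, 0.242% and 0.145% of all FPKM in Eldr cKO and 0.00557%, 0.0669% and 0.121% in control. They too were lowest in control 1 and Eldr cKO 1 and highest in Eldr cKO 2 and 3. The labels' protocols name both a poly(A) kit and an rRNA removal kit, without saying which of them each library went through.

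While the share of the members ranged from 3.07% to 48.7% over the libraries, the proportions among the members varied less. Of the members' summed FPKM, Gm10800 held 65.9% to 71.9%, Gm21738 13.4% to 19.0%, Gm10801 4.86% to 8.46% and Gm10722 3.76% to 5.34% over the 6 libraries. The chromosome 9 block as a whole held 6.75% to 8.10%. The largest difference in any member's proportion between any pair of libraries was 5.91 percentage points, that of Gm10800 between Eldr cKO 1 and control 2. Eldr cKO 2 and control 3, whose shares of all FPKM were 48.7% and 13.4%, differed by at most 0.337 percentage points in any member's proportion.

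Set against Gm10800 in the same library, Gm21738 reached 26.5%, 21.8% and 24.4% in Eldr cKO and 27.4%, 18.7% and 21.4% in control. Gm10722 reached 7.49%, 7.03% and 6.68% in Eldr cKO, against 5.41%, 6.78% and 7.52% in control. The groups overlapped in both ratios. The ratio varied 1.39-fold over the libraries for Gm10722, 1.47-fold for Gm21738 and 1.83-fold for Gm10801, and up to 2.89-fold for Gm10717, the member on the fewest fragments. Across the 15 pairs of libraries, Spearman's rho of the proportions over the 10 members was 0.94 to 0.99, a description over genes that are not independent.

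**Figure D4:**
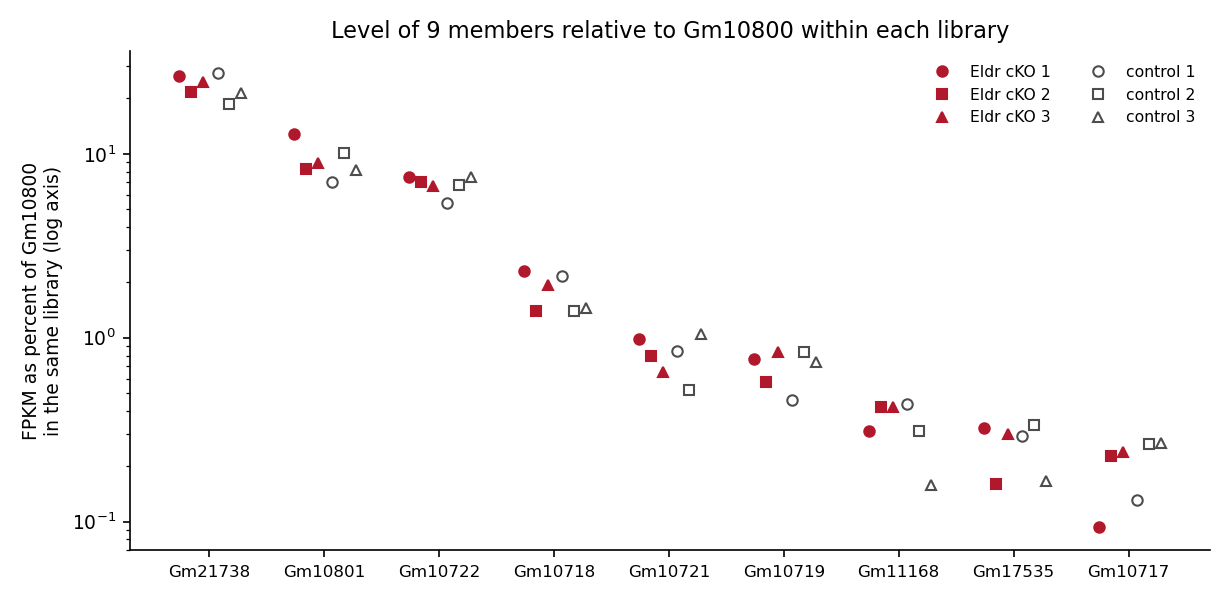
FPKM of 9 members as percent of Gm10800 in the same library (log axis), with filled red symbols for Eldr cKO and open grey symbols for control. Gm21738 stays between 18.7% and 27.4% and Gm10722 between 5.41% and 7.52%, while Gm10717 spreads 2.89-fold.

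In the test across all genes no member passed. With limma on log2(FPKM + 1) and Benjamini-Hochberg adjustment over 9007 genes, 0 of the 10 members were called between Eldr cKO and control (adjusted p = 1.00 for each), and 0.00% of all tested genes were. All 10 log2 fold changes were above 0, from 1.05 (Gm10717) to 1.77 (Gm11168) with a median of 1.44, against a median of -0.13 over all tested genes. Both ends of this range are members that passed the threshold only through Eldr cKO, which favours a value above 0. The 7 members with a control mean of at least 100 FPKM lay between 1.33 (Gm10800) and 1.56 (Gm10801). The members share sequence, so their directions are not independent of each other. The groups overlapped for all members, so 0 of 10 were separated, against 3.94% of tested genes whose groups did not overlap.

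The error depended on how the spread was estimated. For Gm10800 the log2 fold change was 1.33 with an SE of 0.42 from limma's variance trend over all tested genes. In this fit the gene's own spread got no separate weight beside the trend. From the spread of its own values, with an SD of 2.45 on the log2 scale in Eldr cKO and 1.00 in control (n = 3 each), the SE was 1.53. The difference of Gm10800 was thus smaller than its own error. For Gm21738 the change was 1.45, with an SE of 0.55 from the trend and 1.41 from its own spread. Over the 10 members the SE from their own spread lay between 1.31 and 1.999. The difference was larger than this SE in some members, such as Gm10718, and smaller in others, such as Gm10800 and Gm10717. At an unadjusted limma p under 0.05 stood 4 members, Gm10800, Gm21738, Gm10801 and Gm10722, against 1.50% of all tested genes. The authors' deposited table gave p from 0.318 to 0.628 and q from 0.761 to 0.916 for the 10 members.

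The outcome depended on single libraries and on their weights. Without Eldr cKO 1, which leaves 2 libraries in that group, limma called Gm10800 at a log2 fold change of 2.74 (SE 0.46, adjusted p = 0.00577). It called Gm21738 at 2.80 (SE 0.56, adjusted p = 0.0371). These members were the only genes called higher, 0.0242% of 8267 tested genes, and Atp5k and Atpif1 were called lower. With all 6 libraries kept but weighted, limma called Gm10800 at a log2 fold change of 2.29 (adjusted p = 1.56e-05). Gm21738 was called there at 2.33 (adjusted p = 0.00915). The weights were estimated from how far each library scattered within its group in these same values. They are no separate measure of quality, so this fit and the one without Eldr cKO 1 are not independent of each other. The median of the members was 2.79 without Eldr cKO 1. Without Eldr cKO 2 it was 0.84, without Eldr cKO 3 it was 0.76 and without control 1 it was 0.85, with 0 members called by limma in each. Without control 2 and without control 3 it was 1.81 and 1.60, again with 0 called. The share of the summed FPKM differed by 15.2 to 37.6 percentage points with 1 library left out.

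**Figure D5:**
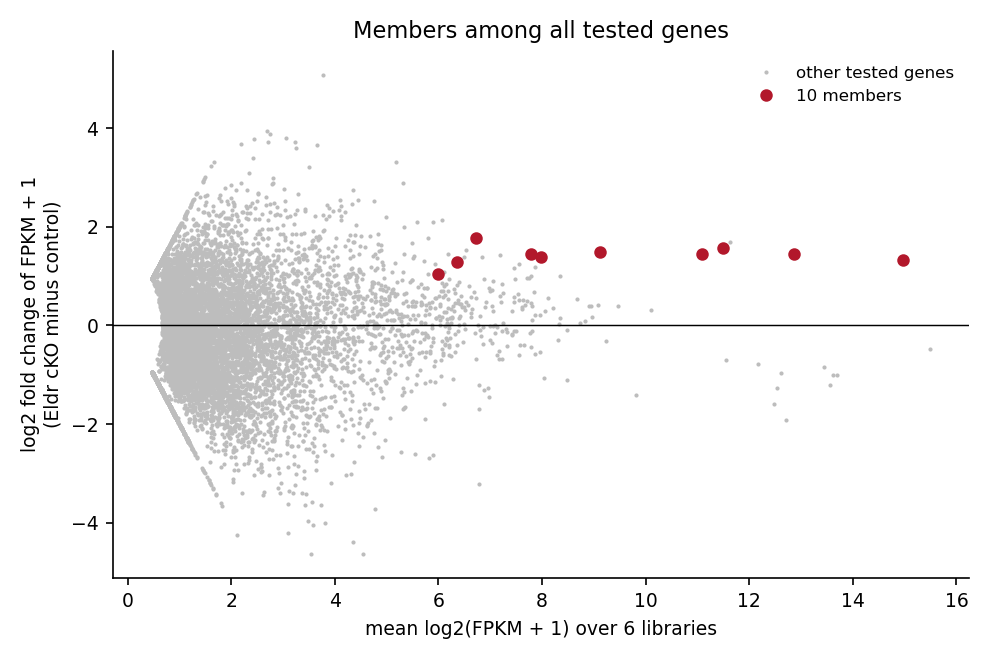
Log2 fold change of FPKM + 1, Eldr cKO minus control (y axis), against the mean log2(FPKM + 1) over 6 libraries (x axis) for 9007 tested genes, with the 10 members in red. The members lie between 1.05 and 1.77 over a wide range of levels.

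A list of genes linked to heterochromatin or to the silencing of satellite repeats was looked at beside the members. The 34 listed genes included the HP1 proteins, H3K9 and DNA methyltransferases and lamins, and also RNA enzymes such as Xrn2. Of the 34, 29 had a row and 24 passed the filter of a mean of at least 1 FPKM. Of these 24, limma called 0 and 0 were under an unadjusted p of 0.05. Their log2 fold changes were above 0 for 7 and below 0 for 17, with a median of -0.42, against -0.13 over all tested genes. What share of all tested genes lay below 0 was not computed, so this split is not a result about the list. Under median centring 14 lay above 0 and 10 below, and the list's median was 0.10, against 0.40 over all genes. This centring shifts all genes of a library alike, so the list's gap to all genes, -0.30, was the same with and without it by construction. Under quantile normalization the gap was -0.10, and with a pseudocount of 0.1 it was -1.02. Without control 3 the list's median was 0.16, against 0.04 over all genes. It was -1.28 without Eldr cKO 1 (all genes -0.76), -1.19 without control 2 (all genes -0.44) and -0.26 without control 1 (all genes 0.10). Without Eldr cKO 3 it was -0.25 (all genes 0.02) and without Eldr cKO 2 it was -0.03 (all genes 0.13). Only 4 of the 29 were above 0 in all 6 libraries, so most values stand on few fragments.

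The listed genes with the highest means were Xrn2, Cbx1, Cbx5 and Lmna. Xrn2, a nuclear exonuclease that degrades RNA from its 5′ end, was listed at 35.5, 120 and 47.0 FPKM in Eldr cKO and at 16.6, 47.3 and 99.2 FPKM in control. Cbx5, which encodes HP1 alpha, was listed at 13.7, 0 and 9.88 FPKM in Eldr cKO, against 7.51, 12.8 and 38.9 FPKM in control. Cbx1, which encodes HP1 beta, was listed at 2.42, 0 and 46.5 FPKM in Eldr cKO and at 2.86, 0 and 50.7 FPKM in control. Lmna, which encodes lamins A and C of the nuclear envelope, was listed at 24.2, 0 and 20.02 FPKM in Eldr cKO, against 3.68, 12.3 and 20.9 FPKM in control. The groups overlapped for all 4. Lmnb1, the lamin B1 gene whose loss is a known mark of senescent cells, is named after its values were seen as the listed gene with the smallest p. It was listed at 14.1, 0 and 17.6 FPKM in Eldr cKO and 0.732, 0 and 0 FPKM in control, with a log2 fold change of 2.45 (SE 1.38, limma, unadjusted p = 0.0772).

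Outside the members, the rows whose pattern was most like theirs were U2surp, Eif4a2, Rere, Gm10282 and Mmp14. They were ranked by Pearson's r of log2(FPKM + 1) with the log2 of the members' sum over the 6 libraries, among 863 rows with a mean of at least 10 FPKM that were above 0 in every library. The values of r were 0.98, 0.97, 0.97, 0.97 and 0.97, and 19 of the 863 rows had an r above 0.9. These are descriptions over 6 libraries that share the same depths. Eif4a2, a translation initiation helicase, was listed at 50.02, 229 and 151 FPKM in Eldr cKO and at 52.4, 112 and 89.8 FPKM in control. U2surp, a splicing factor, was listed at 4.34, 29.7 and 27.1 FPKM in Eldr cKO, against 5.95, 17.2 and 10.2 FPKM in control. Mmp14, a membrane-bound matrix metalloproteinase, was listed at 6.20, 62.0 and 44.9 FPKM in Eldr cKO and at 3.93, 21.3 and 21.03 FPKM in control. At the estimated depths, one fragment of a 2 kb transcript equalled 9.61 FPKM in Eldr cKO 2 and 8.96 FPKM in Eldr cKO 3, so the U2surp values there stand on few fragments.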

How the data were processed

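RNA-seq libraries of 3 Eldr cKO and 3 control samples were compared from a single table of 12560 rows, all listed as protein coding. The deposited FPKM values were made by the authors. The submitters' processing notes name cutadapt, HISAT2 2.0.5 and StringTie, and hg19 as the genome build. The gene IDs are mouse IDs, and 12538 of them were found in GENCODE M21 (GRCm38), 11610 at the same position within 1 bp. The authors' deposited table also holds a log2 fold change, a p-value and a q-value per gene, which were used only where named.

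The members, the gene lists and the tests were chosen with earlier results of these data known. Group differences come from limma 3.58.1 (R 4.3.3), fitted with an intensity trend to log2(FPKM + 1) of the 9007 genes averaging 1 FPKM or more, and p-values were adjusted by Benjamini-Hochberg over all of them. The pseudocount of 1 shrinks the fold changes of low genes. Shares were compared by exact permutation over the 20 assignments of 3 against 3 libraries. Depth was estimated, not given, from the steps of low FPKM values, searching only depths below a fixed limit. Genes at a step were counted with a tolerance of 3%, and intervals were not computed from the depth. No pair among the 6 libraries held identical values. Sequences were taken from GENCODE M21 and aligned with edlib. Named were all members, the rows of the same loci under the threshold, the 5 rows most like the members' sum and the 4 heterochromatin genes with the highest means. The alternatives were other pseudocounts, filters, scalings, variance estimates, library weights, a replicate block, other definitions of the share and leaving out each library.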

Additional observations from a re-analysis of the deposited data

How the results depend on the processing

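Over 17 alternative fits, the 170 log2 fold changes of single members lay between 0.15 and 3.31 and 0 changed sign. Of these, 166 kept their side of the threshold and 4 became called, those of Gm10800 and Gm21738 without Eldr cKO replicate 1 and with library quality weights. With the weights limma called 6 genes, of which 2 were members, at an adjusted p of 1.56e-05 for Gm10800 and 0.00915 for Gm21738. With 1 library left out, limma called 0 to 4 genes and 0 to 2 members, the 4 genes without Eldr cKO replicate 1 and 1 gene, mt-Nd4, without control replicate 1. The adjusted p of the members ranged from 1.56e-05 to 1.00 over these fits. The cause was not tested.

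Median centring moved the median of all genes to 0.40 on the log2 scale, from -0.13 without it. The members' median stood 1.57 above that of all genes in both, by construction, since centring shifts all genes of a library alike. The equal gap is therefore no test of the members. With 1 library left out, this gap ranged from 0.71 (without Eldr cKO replicate 2) to 3.55 (without Eldr cKO replicate 1). The difference in share, at 23.1 percentage points, was 7.04 without Gm10800, 25.0 without mitochondrial rows and 19.1 for the share of FPKM multiplied by transcript length, summed over all rows, an alternative chosen after seeing the data. The replicate block changed no call. With it limma called 0 genes, with 223 at an unadjusted p under 0.05, against 135 without it, and the members' median was 1.44. Deviations of same-numbered libraries correlated at 0.284, 0.152 and 0.0954, so the numbers were not taken as pairs, although each Eldr cKO library correlated best with its own number. The low estimated depth limits the lesser members most, and separate assignment of near-identical copies cannot be judged from FPKM.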
